A study of Mus musculus with 2 samples.

Results

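The tripartite motif (TRIM) family was examined in the chromatin-bound RNA of lipid A-treated mouse macrophages. Members were the genes whose symbol begins with Trim and a digit and which have a protein-coding transcript in the annotation, a choice that used no measured value. This rule found 68 genes among 55536 annotated genes, and they were set beside all 22028 protein-coding genes. The pseudogene Trim30e-ps1 has no protein-coding transcript and was not a member; it had 0 counts in replicate 1 and 1 count in replicate 2.

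The cells were bone-marrow-derived macrophages, phagocytes grown in culture from the marrow of C57BL/6J mice. Both libraries came from 1 condition, in which the cells received lipid A, the part of bacterial lipopolysaccharide that Toll-like receptor 4 recognises, at 100 ng/ml for 12 h, were kept without it for 12 h, and received 100 ng/ml for 75 min. RNA of the chromatin fraction, which is rich in RNA that is still attached to its gene, was freed of ribosomal RNA before sequencing and came from 250 ng in replicate 1 and from 500 ng in replicate 2. The labels call these biological replicates but give them the same donor entry, so the spread between them may be technical, and the amount of starting RNA and the replicate cannot be told apart. The labels name no altered allele, and no sample without lipid A or without the second exposure was analysed here, so every value below is a level and none is a response.

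TRIM proteins share an N-terminal arrangement of a RING domain, 1 or more B-box zinc fingers and a coiled coil, and most act as ubiquitin ligases, passing ubiquitin from a conjugating enzyme to a substrate. The C-terminal domain often sets the substrate: PRY-SPRY domains bind proteins such as viral capsids or antibodies, PHD-bromodomains bind modified histones, NHL repeats bind RNA or protein, and COS boxes bind microtubules. In macrophages the family is known for antiviral restriction and for tuning Toll-like receptor, RIG-I and interferon signals, and many members are interferon-stimulated genes.

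Replicate 1 held 18388793 and replicate 2 held 17640464 expected counts on annotated genes. Trim genes took 48253 counts, or 0.459% of protein-coding counts (95% Wilson interval 0.455 to 0.463), in replicate 1 and 50893 counts, or 0.492% (0.487 to 0.496), in replicate 2; the intervals cover counting error only. The intervals do not overlap, but no replicate spread stands behind either share. The macrophage identity of the cells was visible in 8 of 8 macrophage markers at 1 TPM (a share of the library's transcripts, corrected for their length) or more in both libraries. Their scaled counts were 0.947 to 3.15 times as high in replicate 1 as in replicate 2. Of 22 markers of B, T, dendritic and mast cells, neutrophil precursors, erythroid cells and fibroblasts, 0 reached 1 TPM in both libraries and 12 had 0 counts in both, with summed levels of 1.53 TPM in replicate 1 and 2.41 TPM in replicate 2. By the alignment-free program, described later, 6 of the 22 reached 1 TPM in both libraries. The highest was the T cell marker Cd3d, with a mean of 17.8 ± 3.23 TPM (SD, n = 2) against 0.045 TPM by alignment. In bulk RNA, fewer cells of a type and less RNA per cell cannot be told apart.

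A sequence feature tied to interferon was looked for first in the promoters, namely the core of the interferon-stimulated response element (ISRE) that IRF and STAT factors bind. Its letters, GAAA followed after any 2 bases by GAAA again, were searched on both strands. The windows were RefSeq's, build GRCm38.p6, from 250 bases before to 50 bases after the transcription start, and 53 of the 68 members had at least 1. The core was in a window of 9 of 53 members (17.0%), against 3.99% of all genes with a window. All 9 are printed because they include 6 of the 8 windowed genes among the 10 highest members. Each is written 5′ to 3′ on the gene's own strand, with the core in capitals, where a core on the other strand reads TTTC, any 2 bases and TTTC. Those on the minus strand were Trim30a at chr7:104465144-104465443, Trim30d at chr7:104507800-104508099, Trim12a at chr7:104315446-104315745, Trim12c at chr7:104353300-104353599, Trim5 at chr7:104288057-104288356, Trim21 at chr7:102565433-102565732 and Trim2 at chr3:84212789-84213088. Those on the plus strand were Trim34a at chr7:104244207-104244506 and Trim26 at chr17:36836896-36837195.
Trim30a: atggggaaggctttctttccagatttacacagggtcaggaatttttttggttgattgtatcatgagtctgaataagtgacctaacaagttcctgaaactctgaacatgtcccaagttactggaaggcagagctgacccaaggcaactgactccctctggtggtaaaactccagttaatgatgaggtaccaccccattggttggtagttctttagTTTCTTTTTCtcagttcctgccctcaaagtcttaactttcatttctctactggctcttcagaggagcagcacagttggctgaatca
Trim30d: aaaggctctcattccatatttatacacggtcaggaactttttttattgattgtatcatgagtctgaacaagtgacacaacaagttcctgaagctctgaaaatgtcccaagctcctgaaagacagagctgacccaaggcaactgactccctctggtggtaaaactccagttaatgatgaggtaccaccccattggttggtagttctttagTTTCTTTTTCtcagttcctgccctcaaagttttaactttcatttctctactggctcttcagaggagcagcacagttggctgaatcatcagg
Trim34a: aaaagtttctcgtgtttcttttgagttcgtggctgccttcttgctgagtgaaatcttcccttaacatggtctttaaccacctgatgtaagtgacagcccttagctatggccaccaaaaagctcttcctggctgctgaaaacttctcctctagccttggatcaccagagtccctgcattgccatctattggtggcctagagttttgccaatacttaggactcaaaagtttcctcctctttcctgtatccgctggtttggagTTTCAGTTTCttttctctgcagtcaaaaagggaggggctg
Trim12a: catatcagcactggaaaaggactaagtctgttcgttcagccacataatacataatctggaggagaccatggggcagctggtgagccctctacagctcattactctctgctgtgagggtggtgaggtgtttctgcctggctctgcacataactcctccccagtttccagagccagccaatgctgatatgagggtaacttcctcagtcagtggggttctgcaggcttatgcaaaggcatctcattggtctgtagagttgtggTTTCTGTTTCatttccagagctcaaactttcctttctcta
Trim12c: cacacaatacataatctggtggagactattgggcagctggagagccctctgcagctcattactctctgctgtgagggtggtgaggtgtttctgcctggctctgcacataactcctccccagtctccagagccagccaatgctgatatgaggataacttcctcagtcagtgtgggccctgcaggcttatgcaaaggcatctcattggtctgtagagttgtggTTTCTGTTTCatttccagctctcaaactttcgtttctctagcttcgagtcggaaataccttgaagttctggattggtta
Trim5: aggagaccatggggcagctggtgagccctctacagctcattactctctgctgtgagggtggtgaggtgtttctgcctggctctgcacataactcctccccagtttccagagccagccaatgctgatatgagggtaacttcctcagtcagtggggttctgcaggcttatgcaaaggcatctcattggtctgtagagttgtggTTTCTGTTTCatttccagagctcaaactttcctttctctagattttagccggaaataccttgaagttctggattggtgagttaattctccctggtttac
Trim21: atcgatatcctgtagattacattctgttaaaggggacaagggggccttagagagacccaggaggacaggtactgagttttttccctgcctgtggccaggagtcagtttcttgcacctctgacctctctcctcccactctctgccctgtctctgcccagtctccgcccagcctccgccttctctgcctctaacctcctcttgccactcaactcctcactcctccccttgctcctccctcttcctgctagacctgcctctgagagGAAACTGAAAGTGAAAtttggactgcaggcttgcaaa
Trim26: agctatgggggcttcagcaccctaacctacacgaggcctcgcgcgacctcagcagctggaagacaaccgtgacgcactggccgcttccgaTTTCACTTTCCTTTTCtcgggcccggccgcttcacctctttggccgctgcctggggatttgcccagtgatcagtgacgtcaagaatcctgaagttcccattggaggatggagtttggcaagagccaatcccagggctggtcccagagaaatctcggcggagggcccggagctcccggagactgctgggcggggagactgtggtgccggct
Trim2: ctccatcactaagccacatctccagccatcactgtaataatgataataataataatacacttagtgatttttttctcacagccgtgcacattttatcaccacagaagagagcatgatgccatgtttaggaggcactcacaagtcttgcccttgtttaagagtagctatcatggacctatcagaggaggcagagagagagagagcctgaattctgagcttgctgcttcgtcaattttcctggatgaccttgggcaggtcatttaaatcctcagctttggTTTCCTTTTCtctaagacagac

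The core lay close to the start in 8 of these 9 genes. Its first base was at position -36 in Trim30a, -41 in Trim30d, -29 in Trim12c and -49 in Trim5, counted back from the start. It was at +11 in Trim34a and Trim12a, at +14 and +20 in Trim21, where a pair of cores overlap, and at +29 in Trim2. Trim26 had an overlapping pair farther out, at -160 and -154. Trim30a has a second RefSeq window (chr7:104446076-104446375), which also held the core, at +3.

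A longer form, which is the core followed by CT on its own strand, was in 3 of 53 members, Trim30a, Trim30d and Trim34a, or 5.66% against 0.303% of all genes. The NF-kB pattern, GGG followed after any 5 bases by CC, searched in the same way and free to overlap the core, was in 28 of 53 members, 52.8% against 53.5% of all genes, so the share of members was close to that of all genes. The windows of some paralogs are near copies: Trim30a and Trim30d had 277 identical bases of 300 (92.3%), Trim12c and Trim5 88.3%, Trim12a and Trim12c 82.7%, and Trim12a and Trim5 80.3%. These genes are therefore not separate instances of the core. Among the paralogs of chromosome 7, 6 of 78 pairs of windows were more than 70% identical and the others were 54.7 to 62.7% identical. No value for unrelated windows is given here, so the lower percentages do not by themselves show likeness.

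Members with and without the core were then set side by side. The 9 members with the core had a median of 88.3 TPM (range 0.99 to 245.8) and 8 of them reached 1 TPM in both libraries. All but Trim26 and Trim2 are chromosome 7 paralogs, some with near-copy windows, so these are not 9 separate instances. Of the 12 paralogs, with and without the core, 11 reached 1 TPM in both libraries, with a median of 31.3 TPM. The core and that group were not separated here. The 44 windowed members without the core had a median of 0.405 TPM (range 0 to 83.1) and 17 reached 1 TPM in both libraries. Over all protein-coding genes the median was 0.29 TPM and 40.1% reached 1 TPM in both, so the members without the core lay near that background. The exception with the core was Trim2, which had 0.93 TPM in replicate 1 and 1.05 TPM in replicate 2. Trim2 has 5 windows, and the core was in 1 of them. Without the core in the window used were Trim25 and Trim30c, among the 10 highest members. A match is a description of letters and not a measured binding site, and whether the core has a part in the levels was not tested.

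The family as a whole ranged from silent to high. At least 1 TPM in both libraries was reached by 34 of 68 members (50%), against 40.1% of protein-coding genes. At least 10 TPM was reached by 17 of 68 members, against 17.9% of protein-coding genes, and at least 100 TPM by 3, Trim30a, Trim30d and Trim26, against 2.04%. Another 22 members had some counts but not 1 TPM in both libraries, with means of 0.005 to 1.27 TPM. The remaining 12 had 0 counts in both libraries, a state shared by 34.6% of protein-coding genes; they were Trim9, Trim31, Trim38, Trim40, Trim42, Trim52, Trim54, Trim55, Trim60, Trim61, Trim63 and Trim80. A count of 0 allows up to 3 counts in a library. The median over members was 1.53 TPM in replicate 1 and 1.16 TPM in replicate 2, a mean-level median of 1.33 ± 0.258 TPM (SD, n = 2), against 0.29 ± 0.0141 TPM over all protein-coding genes.

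**Figure D1:**
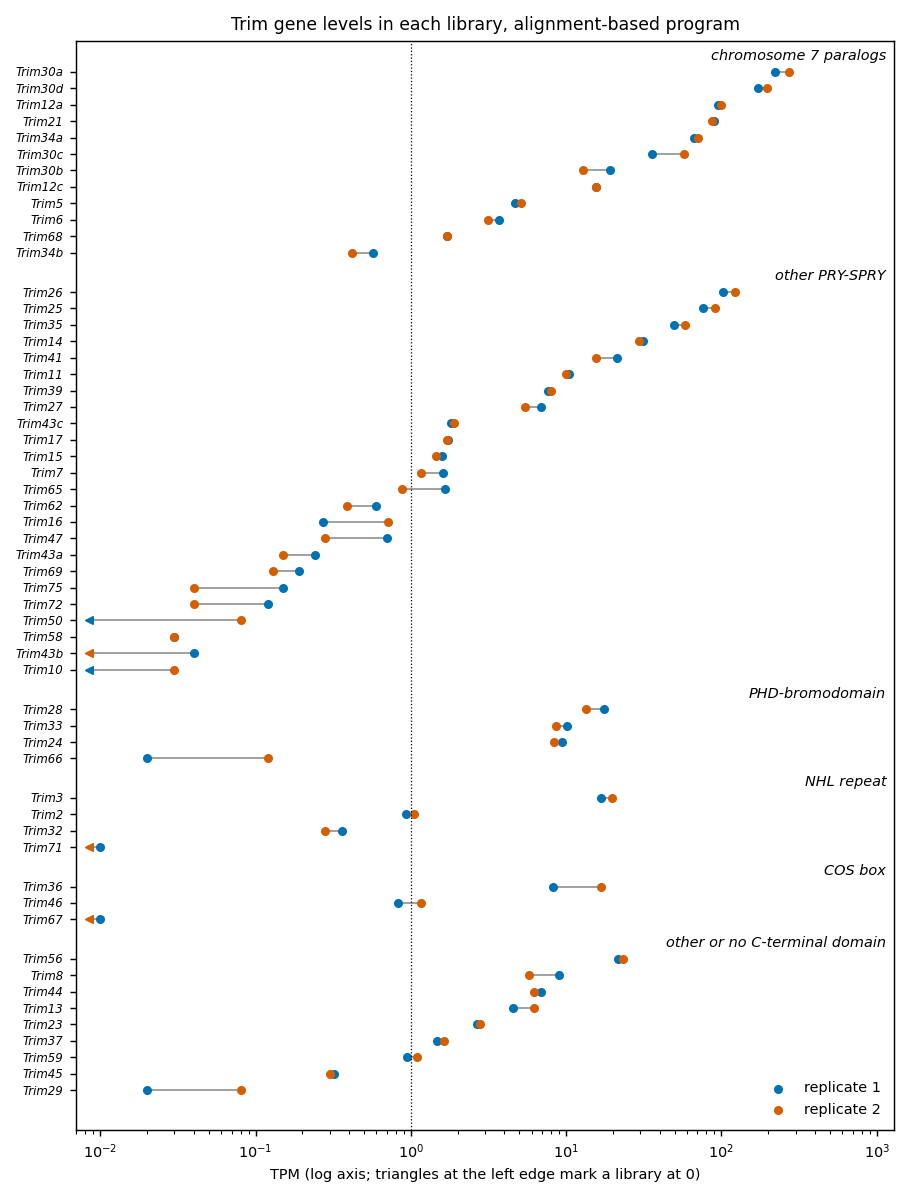
Level of the 56 Trim genes with any counts, in TPM on a log axis, with 1 point for each of the 2 libraries joined by a line. Genes are grouped by C-terminal domain, with the chromosome 7 paralogs as a group of their own, and sorted by mean. The dotted line marks 1 TPM; the chromosome 7 paralogs run from Trim30a, at 220.3 and 271.2 TPM, down to Trim34b, the single member of that group under the line, while most COS box genes are absent because they had 0 counts.

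The top of the family was held by chromosome 7 paralogs and by genes listed as PRY-SPRY outside that group. The domains of the single paralogs were not checked. Trim30a, which in mice degrades the TLR4 signalling adaptors TAB2 and TAB3, had 220.3 TPM in replicate 1 and 271.2 TPM in replicate 2, or 245.8 ± 36.0 (SD, n = 2, as for all means here), and ranked 158 among protein-coding genes. Its neighbour Trim30d had 173.0 TPM in replicate 1 and 195.2 TPM in replicate 2. The values of Trim30a lay above those of Trim30d in both libraries, and together these neighbours took the first places of the family.

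Trim26, a ligase known to limit interferon-β induction, had 102.4 TPM in replicate 1 and 121.8 TPM in replicate 2. Trim12a, one of the mouse counterparts of the primate retrovirus restriction factor TRIM5, had 94.4 TPM in replicate 1 and 99.6 TPM in replicate 2. Trim21, the cytosolic antibody receptor that sends antibody-coated virus to degradation, had 89.8 TPM in replicate 1 and 86.9 TPM in replicate 2, with 1466 counts in each library. Trim25, which ubiquitinates RIG-I and assists the antiviral protein ZAP, had 75.7 TPM in replicate 1 and 90.6 TPM in replicate 2. The range of Trim25 encloses that of Trim21, so the order of these genes was not fixed by their spread.

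Trim34a, whose human counterpart acts with TRIM5 against lentiviral capsids, had 66.4 TPM in replicate 1 and 71.0 TPM in replicate 2. Trim35, first described as a haematopoietic lineage switch gene, had 49.5 TPM in replicate 1 and 58.4 TPM in replicate 2. Trim30c, a paralog of Trim30a, had 36.0 TPM in replicate 1 and 57.5 TPM in replicate 2, so its range overlapped that of Trim35. Trim14, which has no RING domain and serves as an adaptor at the mitochondrial protein MAVS, had 31.2 TPM in replicate 1 and 29.2 TPM in replicate 2.

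Members at 1 TPM in both libraries were counted by class, beside 40.1% of all protein-coding genes. Of the 12 chromosome 7 paralogs, 11 reached 1 TPM in both libraries, and their median of mean levels was 31.3 TPM, with means of 0.495 to 245.8 TPM. Of the 26 genes listed as PRY-SPRY outside that group, 12 did so, with a median of 0.88 TPM. The PHD-bromodomain class had 3 of 4 members at 1 TPM and a median of 9.13 TPM, and the genes with another C-terminal domain or none had 6 of 14 and a median of 0.665 TPM. The shares of this last class (42.9%) and of the PRY-SPRY genes outside the paralogs (46.2%) were close to that of all protein-coding genes. The NHL class had 1 of 4 and a median of 0.655 TPM, and the COS box class 1 of 8 and a median of 0 TPM. With 1 condition these are descriptions of the classes without a test. The counts of the COS box and NHL classes rest on 1 gene each, Trim36 and Trim3, both well above the limit in each library. Near the limit but not counted were Trim46 (0.82 TPM in replicate 1 and 1.16 TPM in replicate 2) and Trim2 (0.93 and 1.05 TPM). The counts of both classes changed with the processing, as given among the processing choices.

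In the PHD-bromodomain class, whose members regulate transcription in the nucleus, Trim28, the co-repressor that KRAB zinc-finger proteins recruit to retroelements, had 17.6 TPM in replicate 1 and 13.4 TPM in replicate 2. Trim33, a regulator of SMAD signalling, had 10.2 TPM in replicate 1 and 8.54 TPM in replicate 2. Trim24, a cofactor of nuclear receptors, had 9.41 TPM in replicate 1 and 8.36 TPM in replicate 2. These ranges overlap for Trim33 and Trim24, while the fourth member, Trim66, had 3 counts in replicate 1 and 10 counts in replicate 2.

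Next after Trim14 by mean level, Trim56, a ligase of the cGAS-STING pathway of DNA sensing, had 21.4 TPM in replicate 1 and 23.2 TPM in replicate 2. Trim41, known in human cells to target protein kinase C, had 21.4 TPM in replicate 1 and 15.5 TPM in replicate 2. Trim3, an NHL protein best known from neurons, had 16.8 TPM in replicate 1 and 19.9 TPM in replicate 2. The ranges of Trim41 and Trim3 overlap.

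Trim11, a PRY-SPRY ligase, had 10.4 TPM in replicate 1 and 10.04 TPM in replicate 2, the lowest of the 17 members at 10 TPM. Trim36, a microtubule-binding ligase known from sperm, had 8.24 TPM in replicate 1 and 16.8 TPM in replicate 2, and was the COS box gene that reached 1 TPM in both libraries. Muscle genes of that class, Trim54, Trim55 and Trim63, and the brain gene Trim9 had 0 counts in both. By the alignment-free program Trim9 had 53.7 counts in replicate 1 and 45.02 counts in replicate 2, or 0.484 and 0.453 TPM.

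Of the Trim counts, the larger share came from a single region. A stretch of 289.1 kb on chromosome 7 (chr7:104218793-104507849, mm10) holds 10 members in the order Trim6, Trim34a, Trim5, Trim12a, Trim34b, Trim12c, Trim30b, Trim30c, Trim30a and Trim30d. No other protein-coding gene is annotated inside it. This cluster held 55.1% of all Trim counts in replicate 1 and 55.6% in replicate 2, and 54.98% of Trim TPM in replicate 1 and 56.9% in replicate 2. Of the 68 members, 16 lie on chromosome 7 and 13 of these reached 1 TPM in both libraries.

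Levels inside the cluster were uneven between next neighbours. Trim34a lies 1.15 kb from Trim5, which runs on the opposite strand and had 4.69 TPM in replicate 1 and 5.14 TPM in replicate 2, far under the 66.4 and 71.0 TPM of Trim34a. Trim6, whose human counterpart makes free ubiquitin chains that activate the kinase IKKε, had 3.71 TPM in replicate 1 and 3.15 TPM in replicate 2. Trim34b, a near copy of Trim34a between Trim12a and Trim12c, had 0.57 TPM in replicate 1 and 0.42 TPM in replicate 2, the lowest level of the cluster.

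In the middle of the cluster, Trim12c, which in mice can raise interferon and NF-kB signals, had 15.5 TPM in both libraries, and Trim30b had 19.1 TPM in replicate 1 and 12.8 TPM in replicate 2. The range of Trim30b encloses the level of Trim12c. Elsewhere on the chromosome are Trim21 (chr7:102557921-102565486) and Trim68 (chr7:102677582-102687327), relatives of the cluster, and Trim68 had 1.71 TPM in replicate 1 and 1.70 TPM in replicate 2, well under Trim21.

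**Figure D2:**
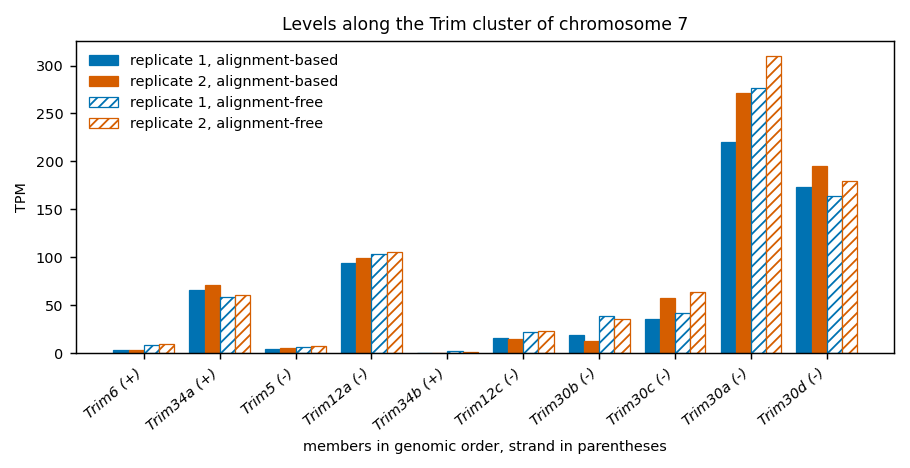
Level in TPM of the 10 members of the chromosome 7 cluster in genomic order, with filled bars for the alignment-based and hatched bars for the alignment-free program and a colour for each of the 2 replicates. Trim30a and Trim30d at the right end and Trim12a stand above the others in all 4 bars, and Trim30b is higher by the alignment-free program.

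Only 1 of the 8 other annotated genes inside the cluster reached 1 TPM. This was the processed pseudogene Gm16464, which lies within Trim30d on the same strand and had 43.0 TPM (616.6 counts) in replicate 1 and 45.8 TPM (606.7 counts) in replicate 2. Its sequence was hardly shared with the annotated transcripts of Trim30d, but reads of Gm16464 and of unspliced Trim30d RNA cannot be told apart. A second group of 5 members lies on chromosome 17, where Trim26 (chr17:36837134-36859398) is followed after 1.29 kb by Trim15, then Trim10, Trim40 and Trim31. Trim15 had 1.58 TPM in replicate 1 and 1.45 TPM in replicate 2, Trim10 had 0 counts in replicate 1 and 1 count in replicate 2, and Trim40 and Trim31 had 0 counts in both, against more than 100 TPM for Trim26.

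Close paralogs can share reads, so the assignment was checked. Stretches of 31 bases shared with the partner gene made up 69.0% of Trim34b and 48.7% of Trim34a, 38.7% of Trim12c and 37.9% of Trim5, but 8.53% of Trim30a and 9.19% of Trim30d. The deposited posterior SD, the program's own uncertainty of a count, exceeded 10% of the count in 1 of 43 members with a mean of 10 counts, against 1.81% of such protein-coding genes. That gene was Trim34b, with a posterior SD that averaged 12.3% of the count at 15.2 counts in replicate 1 and 10.3 counts in replicate 2, and its level is uncertain. The posterior SD was above 0 for 13 of 43 members, against 31.1% of protein-coding genes.

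Genes that overlap on the opposite strand are also uncertain, and no source used here gives the strand setting of the counting. Trim14 and Nans, on opposite strands, had fractional counts of 669.35 and 91.65 in replicate 1, and 586.52 and 100.48 in replicate 2. In each library the fractions complement each other, as when reads are divided between genes, so strand did not keep these reads apart. Trim13, a ligase of the endoplasmic reticulum with 4.56 TPM in replicate 1 and 6.22 TPM in replicate 2, overlaps the noncoding gene Dleu2. Trim13 had 101 counts in replicate 1 and 127 in replicate 2, against 2571 and 2403 counts for Dleu2. Trim43c had 48.7 counts in replicate 1 and 50 counts in replicate 2 and overlaps 9330159M07Rik, with 354.6 counts in replicate 1 and 360.4 in replicate 2. Trim14 overlaps Nans, but there the larger count was that of Trim14, with 669.4 counts against 91.7 in replicate 1 and 586.5 counts against 100.5 in replicate 2.

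The same libraries were quantified by the authors a second time without alignment, and the programs were set against each other. Of 43 members at 1 TPM or more by either, 33 were within 2-fold, 0 were 2-fold or more higher by the alignment-based program, against 0.243% of protein-coding genes, and 10 were 2-fold or more lower, against 34.4%. The median log2 ratio, alignment-based over alignment-free, was -0.31 for members and -0.57 for protein-coding genes. The 10 members were Trim2, Trim6, Trim30b, Trim34b, Trim37, Trim43b, Trim52, Trim63, Trim65 and Trim67.

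Trim52 differed most, with 0 TPM in both libraries by alignment against 23.0 TPM in replicate 1 and 23.8 TPM in replicate 2 by the alignment-free program. Of its alignment-free level, 99.8% lay on a noncoding isoform, Trim52-202, of 584 bases. Trim63, the muscle ligase MuRF1, likewise had 0 TPM by alignment against 3.78 TPM in replicate 1 and 3.997 TPM in replicate 2, of which 77.2 ± 9.85% lay on a retained-intron isoform. For these genes, as for Trim9 and Trim38 (5 counts in replicate 1 and 3 counts in replicate 2 without alignment), the absence of counts holds for the alignment-based program alone.

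Among the 20 highest members, Trim14 had a mean of 30.2 ± 1.38 TPM by alignment and 54.0 ± 0.416 TPM without, Trim41 18.4 ± 4.14 and 29.2 ± 1.98 TPM, and Trim3 18.4 ± 2.14 and 29.2 ± 4.68 TPM, gaps under 2-fold but over 1.5-fold. Trim30b had a mean of 15.9 ± 4.50 TPM by alignment and 37.0 ± 2.21 TPM without, with log2 ratio -1.21. Trim6 had 3.43 ± 0.396 TPM by alignment and 9.38 ± 0.289 TPM without. Trim65, which in human cells activates the RNA sensor MDA5, had 1.27 ± 0.544 TPM by alignment and 5.01 ± 0.215 TPM without.

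Trim37, a ligase that controls centriole number, had 1.55 ± 0.113 TPM by alignment and 4.24 ± 0.123 TPM without, and Trim2, an NHL ligase of axons, had 0.99 ± 0.0849 TPM by alignment and 2.53 ± 0.735 TPM without. Trim34b had 0.495 ± 0.106 TPM by alignment and 2.22 ± 0.911 TPM without. Trim43b, of a family expressed in early embryos, had 0.02 ± 0.0283 TPM by alignment and 1.58 ± 0.198 TPM without, and Trim67 had 0.005 ± 0.00707 TPM by alignment and 1.14 ± 0.111 TPM without. These last members lay at or under 1.63 TPM in each library by alignment.

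**Figure D3:**
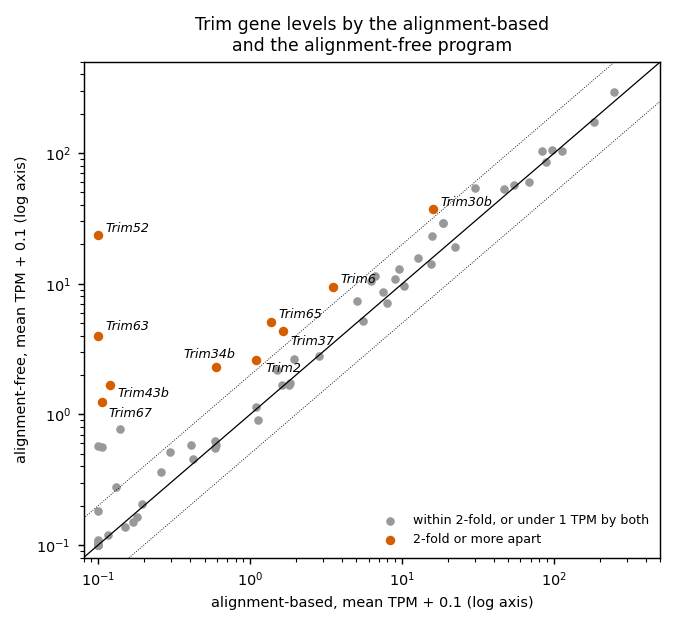
Mean level of each of the 68 Trim genes over 2 libraries by the alignment-based program (horizontal) and the alignment-free program (vertical), as TPM + 0.1 on log axes, with the line of equality and dotted lines at 2-fold. The 10 named genes are all above the upper dotted line, Trim52 farthest, and no gene lies under the lower one.

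Chromatin RNA includes transcripts whose introns are not yet removed, so the isoform classes of the members were read from the transcript table. Among 36 members with a mean of at least 1 TPM, the annotation gave 17 a retained-intron isoform, against 64.6% of such protein-coding genes. In these 17 the mean share of the gene's TPM on such isoforms had a median of 41.4%, with a range of 8.44 to 70.4%. The medians of the single libraries were 41.4% in replicate 1 and 38.5% in replicate 2 (SD 2.00). Over protein-coding genes the median was 45.1%, with 45.6% in replicate 1 and 44.7% in replicate 2 (SD 0.604). The share was over 50% in 5 of 17, against 41.8% of protein-coding genes. Reads of RNA that is still unspliced can fall on the same isoforms, and retained introns and unspliced precursor cannot be told apart.

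Trim21 had the highest share, 73.6% in replicate 1 and 67.2% in replicate 2. Its TPM was spread over 3 short retained-intron isoforms, Trim21-203 with 30.0%, Trim21-205 with 28.3% and Trim21-204 with 12.2%, while the coding isoforms had 29.6 ± 4.50%. Trim28 had 67.4% on such isoforms in replicate 1 and 62.5% in replicate 2, and Trim3 had 60.3% in replicate 1 and 63.0% in replicate 2. Each of these was over 50% in both libraries.

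Trim33 had 49.5% in replicate 1 and 55.5% in replicate 2, close to the limit, and Trim68, at 45 counts in replicate 1 and 30 in replicate 2, had 39.2% and 68.2%, so its libraries fell on opposite sides. TPM is divided by length, which raises the share of short isoforms. By counts, Trim21 had a share of 27.7 ± 3.6%, Trim28 of 35.3 ± 2.61% and Trim3 of 22.6 ± 2.23%. By counts 1 of 17 members was over 50%, Trim12a, with 54.9 ± 1.09%, all of it on Trim12a-205, an isoform of 3730 bases. By the alignment-free program 9 of 18 were over 50%.

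**Figure D4:**
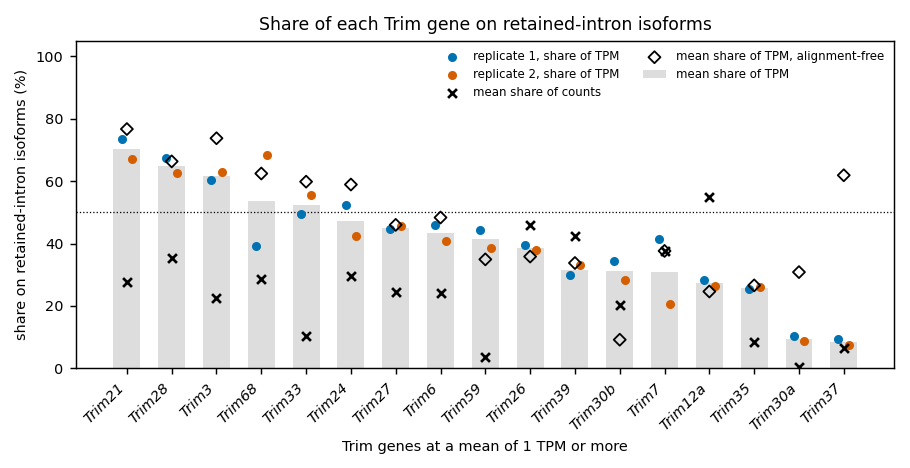
Share, in percent, of each gene's TPM on isoforms annotated as retained intron for the 17 Trim genes with such an isoform, as grey bars for the mean and coloured points for the 2 libraries, with crosses for the mean share of counts and diamonds for the alignment-free program. The dotted line marks 50%; 5 bars pass it, from Trim21 to Trim33, and among the crosses that of Trim12a alone does.

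By alignment-based share of TPM, the highest genes differed in the isoform that led. Trim30a was mostly the coding isoform Trim30a-201, with 87.5 ± 1.59% of its TPM, and Trim30d was divided between the coding isoforms Trim30d-201 (59.8 ± 2.55%) and Trim30d-202 (39.9 ± 2.71%). Trim26 was led by a noncoding isoform, Trim26-209, with 43.0 ± 2.30%, and its coding isoforms together had 18.2 ± 1.14%. Trim25 was carried by its coding isoforms Trim25-203 (68.2 ± 6.53%) and Trim25-202 (31.8 ± 6.53%). The leader depended on the measure in several of these genes. By counts in replicate 1, Trim30d-202 (3413) led Trim30d-201 (3010), and the retained-intron isoform Trim26-207 (1871) led Trim26-209 (1448). Replicate 2 had the same order. By the alignment-free program Trim25-202 led with 59.5%. There Trim30a-201 kept the lead with 63.1%, and a retained-intron isoform had 30.8% of Trim30a. A high gene level here is therefore not in each case a high level of coding transcript.

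The libraries were compared in the 42 of 68 members with at least 10 counts in each, by the ratio of scaled counts in replicate 1 over replicate 2. None of the members was 2-fold or more higher in replicate 1, against 3.30% of protein-coding genes, and 1 was 2-fold or more lower, against 3.15%. That was Trim36, with 469 counts in replicate 1 and 863 counts in replicate 2 and a log2 ratio of -1.01, at the limit. It no longer passed when the libraries were scaled to their total counts or when alignment-free counts or log2(TPM + 1) were used. At 1.5-fold, 1 member was higher in replicate 1, against 13.0%, namely Trim65 with 90 counts in replicate 1 and 43 counts in replicate 2, and 2 were lower, against 9.34%, namely Trim36 and Trim30c, which had 899 counts in replicate 1 and 1314 counts in replicate 2. Members were divided evenly, 21 higher and 21 lower in replicate 1, and their median absolute difference was 1.17-fold, against 1.24-fold for protein-coding genes. With 1 library on each side there is no test, and a ratio compares those libraries only.

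**Figure D5:**
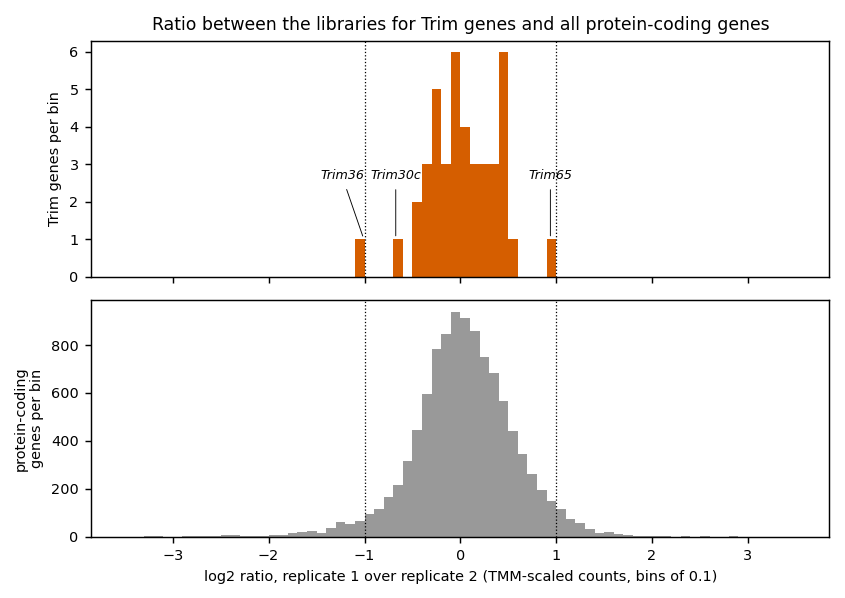
Number of genes by log2 ratio of TMM-scaled counts, replicate 1 over replicate 2, in bins of 0.1, for 42 Trim genes (top) and 10348 protein-coding genes (bottom) with at least 10 counts in each library. Dotted lines mark 2-fold; Trim36 at -1.01 is the single Trim gene past them.

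The genes that TRIM proteins work with were also transcribed. Among relatives under other symbols, Pml, the scaffold of nuclear bodies, had 64.5 TPM in replicate 1 and 57.6 TPM in replicate 2, and Mefv, which encodes the inflammasome sensor pyrin, had 66.6 TPM in replicate 1 and 62.1 TPM in replicate 2. The COS box gene Mid1 had 62.4 TPM in replicate 1 and 67.8 TPM in replicate 2 but 304.7 ± 62.4 TPM by the alignment-free program, and its paralog Mid2 had 0 counts. All 7 ubiquitin-conjugating enzyme genes reached 1 TPM in both libraries, against 40.1% of protein-coding genes.

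Of these enzymes, Ube2d3 was highest, with 115.1 TPM in replicate 1 and 140.0 TPM in replicate 2, and Ube2d1 lowest, with 4.84 TPM in replicate 1 and 9.97 TPM in replicate 2. Ube2n, which builds the Lys63-linked chains of signalling, had 31.9 TPM in replicate 1 and 47.6 TPM in replicate 2, and its cofactor Ube2v1 had 19.2 TPM in replicate 1 and 17.7 TPM in replicate 2. The means of Ube2d2a, Ube2l6 and Ube2w were 75.9 ± 5.98, 17.5 ± 4.19 and 14.7 ± 3.78 TPM.

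All 14 partner and substrate genes also reached 1 TPM in both libraries, against 40.1% of protein-coding genes. The RIG-I gene Ddx58, the target of Trim25, had 163.6 TPM in replicate 1 and 147.2 TPM in replicate 2. Ifih1, which encodes MDA5, the target of human TRIM65, had 167.3 TPM in replicate 1 and 447.3 TPM in replicate 2, the widest spread of the list. Their common adaptor Mavs had 1.64 TPM in replicate 1 and 1.05 TPM in replicate 2, the lowest level of the list.

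The kinase gene Tbk1 had 235.7 TPM in replicate 1 and 210.7 TPM in replicate 2, and the ZAP gene Zc3hav1, whose product works with Trim25, had 131.1 TPM in replicate 1 and 166.9 TPM in replicate 2. Vcp, the unfoldase that completes Trim21-driven degradation, had 89.3 TPM in replicate 1 and 86.1 TPM in replicate 2, close to Trim21 itself. Of the Trim30a targets, Tab2 had 64.0 TPM in replicate 1 and 88.0 TPM in replicate 2, while Tab3 had 3.16 TPM in replicate 1 and 4.91 TPM in replicate 2.

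Among the nuclear partners, Setdb1, the histone methyltransferase that Trim28 recruits, averaged 7.83 ± 1.58 TPM, and the heterochromatin protein genes Cbx1, Cbx3 and Cbx5 averaged 11.1 ± 0.849, 2.57 ± 0.283 and 6.17 ± 0.453 TPM. Smad2 and Smad4, which Trim33 binds, averaged 19.6 ± 1.20 and 12.2 ± 2.05 TPM. By the alignment-free program Smad2, Smad4 and Cbx3 averaged 43.6, 30.3 and 22.5 TPM, so their level depends on the program. The same holds for Ube2l6, Ube2w, Pml and Tab3, which averaged 57.5, 40.7, 92.6 and 7.51 TPM without alignment. Across relatives, enzymes and partners, 24 of 25 genes were at 1 TPM in both libraries, against 40.1% of protein-coding genes, Mid2 being the exception. The list was chosen for known roles with earlier results of these data in view, so its share is not that of a neutral choice.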

How the data were processed

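Total RNA of the chromatin fraction was measured in 2 libraries of 1 group. The authors aligned each library to mm10 transcripts of GENCODE M21 and deposited expected counts per gene and transcript in columns named as RSEM names them, per the file headers and description files. The deposited TPM values take effective length into account and sum to a fixed total over all entries, per the file headers. A second set of deposited estimated counts was made without alignment, in columns named as in kallisto output, per the file headers. No source used here gives the programs, their versions or the strand setting.

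The alignment-based gene table gave the reported values, and the alignment-free values were added up over each gene's transcripts. Rounded expected counts of genes with at least 10 in each library were scaled by TMM (edgeR 4.0.16). Ratios between programs used a pseudocount of 0.1 TPM. The ratio step was tested on simulated data. Promoter windows were RefSeq's (GRCm38.p6), and motif letters were matched exactly. All values are descriptions: with 1 condition no test was made, and 0 counts allow up to 3 counts. The shares of Trim genes in protein-coding counts carry 95% Wilson intervals, and the other shares carry none.

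Members and lists were chosen with earlier results of these data known. Named were the 20 highest members, all chromosome 7 paralogs, members 2-fold or more apart between libraries or programs, those with over 50% on retained-intron isoforms, and all partner genes; further members were named as neighbours or overlapping genes, or because they had 0 counts, after their values were seen. Trim4 was not used here, and protein sequences were not searched.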

Additional observations from a re-analysis of the deposited data

How the results depend on the processing

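No paired analysis was possible because both libraries belong to 1 group. The median member level of 1.33 TPM was 2.37 TPM by the alignment-free program, 4.98 TPM when TPM was rescaled over protein-coding genes alone, and 7.60 TPM among members with at least 10 counts in each library; between the libraries it ranged from 1.16 to 1.53 TPM. COS box members at 1 TPM numbered 1 as reported, 3 by the alignment-free program, 2 over protein-coding genes alone, and 1 to 2 with a library left out (2 without replicate 1). NHL members numbered 1 as reported, 2 by the alignment-free program, 3 over protein-coding genes alone, and 1 to 2 with a library left out (2 without replicate 1). Members 2-fold or more apart between libraries numbered 11 without the filter on counts and 0 on log2(TPM + 1). The call of Trim36 was lost by scaling to total counts, under which Trim65 passed with log2 ratio 1.01, and by alignment-free counts, under which Trim16 passed with -1.25. No member had a posterior SD over 10% at a mean of at least 100 counts. Members with over 50% on retained-intron isoforms numbered 1 by counts, 9 by the alignment-free program and 3 at a mean of at least 10 TPM, with median shares of 24.4%, 53.6% and 35.0%; with a library left out they numbered 4 to 5. The longer response element form left 3 members of 9. The causes were not tested. Counts of members at 1 TPM in the family, in the other 4 classes and in the 3 partner lists stayed within 1.5 times under each alternative run. Depth limits the 26 members under 10 counts in a library, whose libraries could not be compared.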
